A study of Mus musculus with 9 samples.

Results

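The genes described here are 50 cytoplasmic ribosomal protein genes of the mouse, 29 for proteins of the large ribosomal subunit and 21 for proteins of the small subunit. They were chosen by symbol from a table of 21959 genes, with earlier results of these data known. All 50 were found in the table. The cells were DC2.4, an immortalised mouse dendritic cell line, and total RNA was sequenced in 9 libraries, 3 labelled OMVSSDC, 3 labelled PBSDC and 3 labelled ZJDC. The study treated this line with engineered extracellular vesicles and asked about immune gene expression. OMVSS and ZJ are not spelled out in the labels, which give no preparation, dose, time, genotype or other agent for any group. PBS is the usual abbreviation of phosphate-buffered saline, and PBSDC was taken as the reference. All groups share the same cell line. No label ties a library to its own culture, so p-values measure only the spread between these libraries, which may be technical.

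Ribosomes translate messenger RNA into protein, and each subunit is built from ribosomal RNA and a fixed set of proteins, most of them present in a single copy. Cells make these proteins in step with ribosomal RNA. Many of their mRNAs begin with a terminal oligopyrimidine tract, a run of C and T directly at the transcription start, through which the kinase mTORC1 and the RNA-binding protein Larp1 control their translation. In dendritic cells, activation is known to change the rate of protein synthesis, and mRNA levels as measured here do not show translation.

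Some of these genes carry that tract at their annotated first base, and 6 examples are shown because they include members whose levels were high, low or alike among the groups. The sequences and their starts are from RefSeq on the build GRCm38.p6, each run covers 15 bases before and 15 bases from the annotated start on the gene's strand, and the capitals mark a C at the first transcribed base followed by at least 4 further C or T.
Rps6, chr4:86857353-86857382, minus strand: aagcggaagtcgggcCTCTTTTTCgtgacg
Rpl35, chr2:39005117-39005146, minus strand: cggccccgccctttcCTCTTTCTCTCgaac
Rpl38, chr11:114668565-114668594, plus strand: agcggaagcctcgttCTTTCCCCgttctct
Rps27, chr3:90213634-90213663, minus strand: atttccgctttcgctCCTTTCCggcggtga
Rplp2, chr7:141447636-141447665, plus strand: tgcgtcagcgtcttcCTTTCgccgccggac
Rpl15, chr14:18270972-18271001, minus strand: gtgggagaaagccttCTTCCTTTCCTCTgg

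Of the 50 genes, 41 matched an entry in the RefSeq promoter table, with 49 starts. The tract stood exactly at the annotated first base of 11 of these 49 starts, which is 22.4%, against 823 of 32851 starts of all genes, which is 2.51%. Anywhere in the 30-base window on the same strand it occurred at 59.2% of the ribosomal protein starts and 36.4% of all starts. The match depends on the annotated start to the base, so a tract a few bases away is not counted at the first base.

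All 14 dendritic and myeloid marker genes were detected in every library, with a summed level of 4998 to 5325 CPM (counts scaled to the library total). Itgax, which encodes the dendritic cell integrin CD11c, had only 23 to 80 counts. Under this even sum, single markers differed in both directions. Lyz2 measured 339, 342 and 269 CPM in OMVSSDC 1 to 3 and 798 to 824 CPM in PBSDC. Cd68 measured 1254, 1200 and 1780 CPM in OMVSSDC 1 to 3 and 814 to 831 CPM in PBSDC. Epithelial and lymphoid markers summed to at most 1.70 CPM, and Cd3e, Cd3g, Cd8a, Ncr1 and Krt19 were at 0 in all 9 libraries. The OMVSSDC group was not uniform. By a chi-square statistic per degree of freedom over genes, OMVSSDC 1 and 2 differed by 1.87, while OMVSSDC 3 differed from them by 59.3 and 61.8 and from the ZJDC libraries by 7.43 to 10.2. The statistic was 2.76 to 3.83 within PBSDC and 2.51 to 8.59 within ZJDC. OMVSSDC 3 is therefore given apart from OMVSSDC 1 and 2 for most of the named members. Most values of the other gene lists are for all 3 OMVSSDC libraries together.

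The 50 genes took 2.99% and 2.92% of all counts in OMVSSDC 1 and 2, and 2.07% in OMVSSDC 3. Their share was 1.87%, 1.88% and 1.89% in PBSDC 1 to 3, and 2.02%, 2.04% and 2.19% in ZJDC 1 to 3. OMVSSDC 1 and 2 lay above every other library, OMVSSDC 3 lay between ZJDC 2 and ZJDC 3, and all ZJDC libraries lay above all PBSDC libraries. The group means were 2.66% ± 0.510 (SD, n = 3) for OMVSSDC, 1.88% ± 0.0128 (SD, n = 3) for PBSDC and 2.08% ± 0.0949 (SD, n = 3) for ZJDC. The 95% Wilson interval of the OMVSSDC 1 share was 2.977% to 2.996%, and these intervals cover counting error only. A further 31 ribosomal protein genes outside the 50 took 1.29% and 1.26% in OMVSSDC 1 and 2, 0.847% in OMVSSDC 3, 0.783% to 0.794% in PBSDC and 0.842% to 0.895% in ZJDC.

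**Figure D1:**
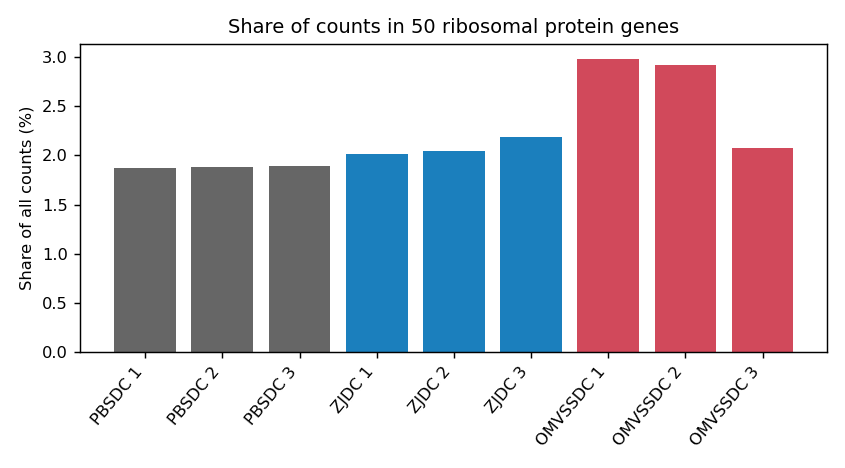
Share of all counts (percent, y axis) taken by the 50 ribosomal protein genes in each of the 9 libraries (x axis), coloured by group. OMVSSDC 1 and 2 reach 2.99% and 2.92%, and the other 7 libraries lie between 1.87% and 2.19%.

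Other properties of the libraries moved with this share. Mitochondrially encoded genes took 1.81% and 1.86% of counts in OMVSSDC 1 and 2, 4.44% in OMVSSDC 3, 6.89% to 7.84% in PBSDC and 4.60% to 5.72% in ZJDC. The 10 heart and 10 brain marker genes, listed as markers of other tissues, summed together to 19.4 and 19.1 CPM in OMVSSDC 1 and 2. In the other 7 libraries the sum was 34.2 to 54.2 CPM. A large part came from Camk2a, at 10.9 to 15.8 CPM in all libraries, and Tnnt2. Tnnt2 was at 17.4 to 19.9 CPM in PBSDC and 2.38 to 7.12 CPM in the other groups. The 9 fibroblast and endothelial markers summed to 11.5 and 11.02 CPM in OMVSSDC 1 and 2 and to 16.4 to 31.2 CPM elsewhere. The collagen gene Col3a1 was at 0 in those 2 libraries alone. Pecam1 measured 2.53, 3.69 and 5.91 CPM in OMVSSDC 1 to 3 and 14.3 to 14.8 CPM in PBSDC. Pdgfra went the other way, with 6.75, 5.60 and 6.93 CPM in OMVSSDC and 2.03 to 3.01 CPM in PBSDC. The source of these counts was not tested. The part of these properties in the results below was not tested. In bulk RNA, a change in the number of cells of a kind and a change in RNA per cell cannot be told apart.

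Levels differed widely among the 50 genes. On the deposited FPKM scale, which is per length, the PBSDC mean was 1182 for Rpl4, 859 for Rpsa, 565 for Rps6 and 428 for Rpl8, and the median of the 50 was 128. Rpl4 and Rpl8 belong to the large subunit, where Rpl4 lines the exit tunnel, and Rpsa and Rps6 belong to the small subunit. At the low end stood Rps18 with 11.3, Rpl26 with 6.40, Rpl30 with 5.64, Rps10 with 1.31 and Rpl24 with 0.307. These are mRNA counts per length of the table's gene models and not protein levels. Rpl24 had 0 to 6 counts per library and was removed by the low-count filter, so the tests cover the other 49.

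The counting of these genes has known weak points. Ribosomal protein genes have many processed pseudogenes, copies of the mRNA elsewhere in the genome, and reads that fit several places can be split or dropped. For 30 of the 50, at least 1 annotated pseudogene transcript matched the mRNA at 95% identity or more over at least 50% of its length, and Rps2 had 27 such copies and Rps6 had 11. No source used here says how multiply mapping reads were treated, so levels of these 30 are uncertain. The table's gene lengths also exceeded the mRNA, by a median of 1.97 times and by up to 6.05 times for Rps19, which lowers its FPKM. The mRNAs were short, with a median of 942 bases against 3008 bases for all tested genes.

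OMVSSDC was compared with PBSDC to ask how these genes differ under the OMVSS label. Many ribosomal protein mRNAs rose: 28 of the 49 tested genes were higher and 2 were lower at an adjusted p under 0.05, while 33.4% of all 11568 tested genes were higher and 30.2% lower. The median log2 fold change was 0.43 for the 49 genes and 0.05 for all tested genes, and 44 of the 49 lay above 0. The largest rises were in Rplp1, Rps19, Rps29 and Rps20. Most of the rise was carried by OMVSSDC 1 and 2. Without OMVSSDC 3, 40 genes were higher and 4 lower (39.0% and 36.0% of all genes), with a median of 0.60. With OMVSSDC 3 as the only library of its group, assumed to vary like the other groups, 12 were higher and 9 lower (30.7% and 31.3% of all genes), with a median of 0.06. In terms of single libraries, 18 genes were higher in all 3 OMVSSDC libraries than in any PBSDC library and 1 was lower, against 33.9% and 31.8% of all tested genes.

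**Figure D2:**
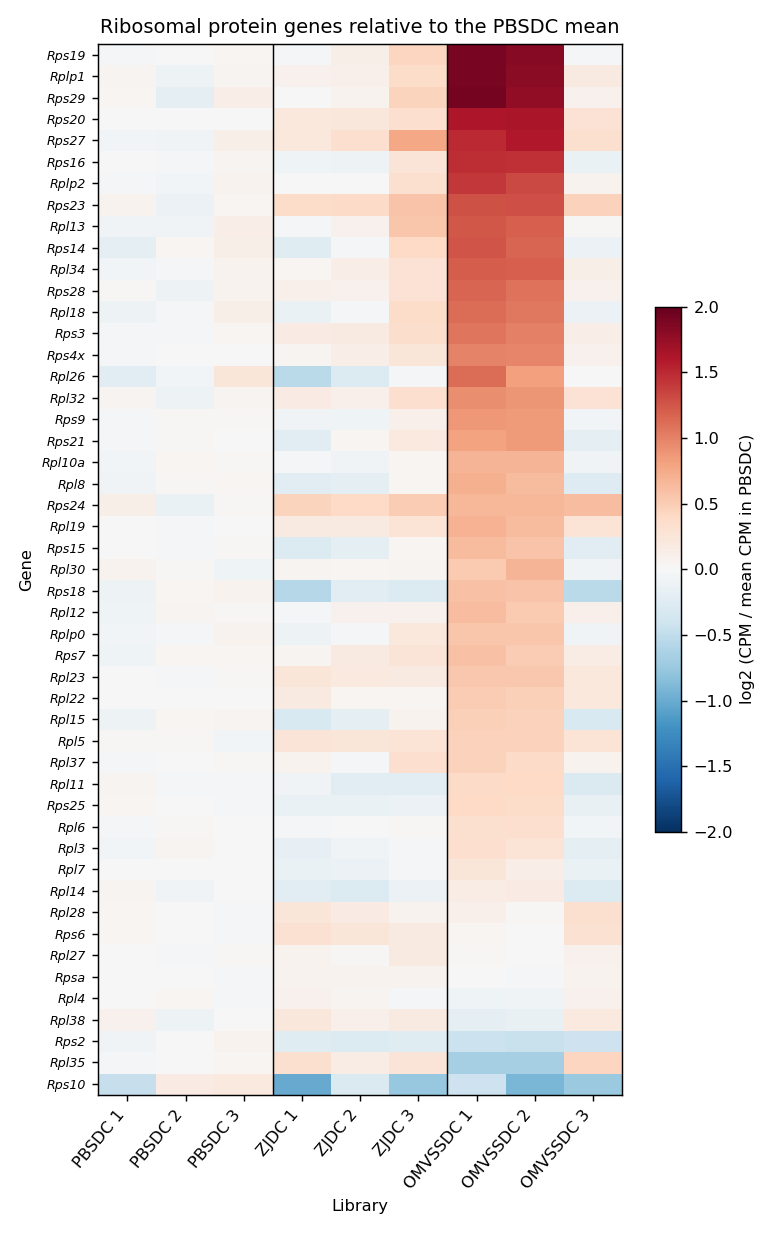
Level of each of the 49 tested genes (rows) in each library (columns) as log2 of CPM over the PBSDC mean, from blue (lower) to red (higher), ordered by the mean of OMVSSDC 1 and 2. OMVSSDC 1 and 2 lie above all other 7 libraries for 40 of the genes, as they do for 23.5% of all tested genes.

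The P stalk of the large subunit recruits the elongation factors and consists of Rplp0, its base, and the acidic proteins Rplp1 and Rplp2. The gene Rplp1 (ENSMUSG00000007892) measured 740, 691 and 223 CPM in OMVSSDC 1 to 3, 205, 184 and 205 CPM in PBSDC and 209, 213 and 256 CPM in ZJDC. OMVSSDC 1 and 2 stood far above all other libraries, and OMVSSDC 3 lay above PBSDC but inside the ZJDC range. The log2 fold change of Rplp1 was 1.48 ± 0.345 (SE; adjusted p = 0.00374, edgeR's quasi-likelihood test); it was 1.85 without OMVSSDC 3 and 0.17 with OMVSSDC 3 alone (adjusted p = 0.187). Its partner Rplp2, whose start is printed above, measured 420, 395 and 166 CPM in OMVSSDC, 153 to 165 CPM in PBSDC and 157 to 197 CPM in ZJDC. The pattern of Rplp2 was the same, with OMVSSDC 3 at the upper edge of the PBSDC libraries and a log2 fold change of 1.05 (adjusted p = 0.00726), against 0.06 with OMVSSDC 3 alone (adjusted p = 0.652). The stalk base Rplp0 measured 736, 733 and 476 CPM in OMVSSDC and 484 to 526 CPM in PBSDC. OMVSSDC 3 was here the lowest of those libraries, and the log2 fold change of 0.37 missed the threshold (adjusted p = 0.0544) unless OMVSSDC 3 was left out (0.55, adjusted p = 9.63e-05).

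Rpl5 and Rpl11 bind a small ribosomal RNA and enter the large subunit with it; outside the ribosome they bind Mdm2, the ligase of p53. The 2 genes did not share a pattern. Rpl5 measured 985, 975 and 859 CPM in OMVSSDC, 722, 726 and 687 CPM in PBSDC and 854, 843 and 863 CPM in ZJDC. Every OMVSSDC and ZJDC library lay above every PBSDC library, and the log2 fold change of 0.40 ± 0.0653 (SE) passed with all libraries (adjusted p = 0.000385) and with OMVSSDC 3 alone (0.27, adjusted p = 9.02e-05). Rpl11 measured 336, 337 and 210 CPM in OMVSSDC, against 250 to 266 CPM in PBSDC. OMVSSDC 1 and 2 lay above and OMVSSDC 3 below the PBSDC libraries: the log2 fold change was 0.39 without OMVSSDC 3 (adjusted p = 2.78e-08) and -0.29 with it alone (adjusted p = 0.00057), and 0.20 over all 3 (adjusted p = 0.273).

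Among the other large-subunit proteins, 12 of the 23 that passed the filter were higher and none was lower. For the whole subunit the count was 15 higher of 28, against 33.4% of all tested genes. Rpl22, an RNA-binding protein with roles in lymphocyte development, measured 139, 136 and 114 CPM in OMVSSDC and 97.3 to 98.8 CPM in PBSDC. Its OMVSSDC libraries all lay above PBSDC, and it was higher with all libraries (log2 fold change 0.40, adjusted p = 0.00173) and with OMVSSDC 3 alone (0.21, adjusted p = 0.0154). Rpl13 measured 668, 645 and 288 CPM in OMVSSDC and 269, 270 and 310 CPM in PBSDC. OMVSSDC 3 lay within the PBSDC range, and the log2 fold change of 0.92 (adjusted p = 0.0142) was 0.02 with OMVSSDC 3 alone (adjusted p = 0.956). Rpl10a, which forms the L1 stalk where the spent tRNA leaves, measured 627, 622 and 370 CPM in OMVSSDC and 375 to 400 CPM in PBSDC. OMVSSDC 3 was below all PBSDC libraries, and the log2 fold change of 0.47 passed narrowly (adjusted p = 0.0294). Leaving out OMVSSDC 1, OMVSSDC 2 or any PBSDC library ended the call for Rpl10a, with adjusted p of 0.0698 to 0.113, and leaving out OMVSSDC 1, OMVSSDC 2, PBSDC 1 or PBSDC 2 ended that for Rpl13, with 0.0505 to 0.0531. Rpl3, next to the site where peptide bonds form, measured 601, 577 and 415 CPM in OMVSSDC and 462 to 499 CPM in PBSDC, and its log2 fold change of 0.15 missed the threshold (adjusted p = 0.293).

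Against the common pattern, 3 large-subunit genes were lowest in OMVSSDC 1 and 2: Rpl35, Rpl38 and, by a small margin, Rpl4. With Rps2 of the small subunit they made 4 genes below all other 7 libraries there, against 22.2% of all tested genes. Rpl35, a protein at the mouth of the exit tunnel, measured 29.6, 29.6 and 63.5 CPM in OMVSSDC, 46.2, 46.6 and 48.2 CPM in PBSDC and 58.8, 51.8 and 56.0 CPM in ZJDC. OMVSSDC 1 and 2 lay below and OMVSSDC 3 above every other library. The log2 fold change of Rpl35 against PBSDC was -0.67 without OMVSSDC 3 (adjusted p = 6.7e-09) and 0.43 with it alone (adjusted p = 0.000144), and -0.20 over all 3 (adjusted p = 0.494). Rpl38, known from mouse skeletal mutants as a regulator of Hox mRNA translation, measured 102, 104 and 132 CPM in OMVSSDC, 123, 108 and 116 CPM in PBSDC and 135, 125 and 131 CPM in ZJDC. The lowest libraries were again OMVSSDC 1 and 2, at smaller distances, with log2 fold changes of -0.17 without OMVSSDC 3 (adjusted p = 0.0108), 0.18 with it alone (adjusted p = 0.0377) and -0.04 over all 3 (adjusted p = 0.753). Rpl4 measured 2343, 2365 and 2625 CPM in OMVSSDC and 2429 to 2544 CPM in PBSDC, and its log2 fold change missed the threshold without OMVSSDC 3 (-0.08, adjusted p = 0.0715) and over all 3 (-0.02, adjusted p = 0.778). The starts of Rpl35 and Rpl38 are among those printed above.

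In the small subunit, 13 of 21 genes were higher and 2 lower, against 33.4% and 30.2% of all tested genes. The subunit's head, which holds the mRNA and tRNA during movement of the ribosome, had 6 of 10 higher and 1 lower, with a median log2 fold change of 0.83. With OMVSSDC 3 alone, the median over these 10 was -0.09. Rps19, the protein most often mutated in Diamond-Blackfan anaemia, measured 418, 395 and 109 CPM in OMVSSDC, 109, 111 and 115 CPM in PBSDC and 109, 121 and 151 CPM in ZJDC. OMVSSDC 3 could not be set apart from PBSDC, with a log2 fold change of -0.04 (adjusted p = 0.854), against 1.86 for OMVSSDC 1 and 2 (adjusted p = 4.76e-06) and 1.46 ± 0.387 (SE) for all 3 (adjusted p = 0.00753). Rps29, a small zinc-binding protein of the head, measured 86.6, 78.1 and 24.4 CPM in OMVSSDC and 20.2 to 25.0 CPM in PBSDC. It also had OMVSSDC 3 within the PBSDC range, and its log2 fold change of 1.46 (adjusted p = 0.00609) was 0.09 with OMVSSDC 3 alone (adjusted p = 0.654).

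Rps20, which lies in the head and is a gene of inherited colorectal cancer and anaemia, measured 368, 372 and 147 CPM in OMVSSDC, 120, 119 and 120 CPM in PBSDC and 139, 141 and 151 CPM in ZJDC. All OMVSSDC libraries lay above PBSDC, and the log2 fold change was 1.30 ± 0.276 (SE; adjusted p = 0.00209), with 1.63 for OMVSSDC 1 and 2 and 0.29 for OMVSSDC 3 alone (adjusted p = 0.000623). Rps3, which guards the mRNA entry channel and also has roles in DNA repair and NF-kB signalling, measured 1058, 1013 and 549 CPM in OMVSSDC and 496 to 517 CPM in PBSDC. Its log2 fold change was 0.79 (adjusted p = 0.00527), and 0.12 with OMVSSDC 3 alone (adjusted p = 0.0994). The gene of the head that was lower was Rps10, a target of ubiquitin ligation on stalled ribosomes, at 2.38, 1.68 and 1.90 CPM in OMVSSDC and 2.30, 3.57 and 3.65 CPM in PBSDC. The ranges of Rps10 overlapped, and its log2 fold change of -0.68 only just passed (adjusted p = 0.0447); leaving out OMVSSDC 2, PBSDC 2, PBSDC 3 or ZJDC 3 ended the call, with adjusted p of 0.0585 to 0.139. Without the low-count filter, with limma-voom or with library size alone as scaling, Rps10 also missed the threshold (adjusted p 0.0507 to 0.0952).

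In the small subunit's body and platform, 7 of 11 genes were higher and 1 was lower, against 33.4% and 30.2% of all tested genes. Rps24 (ENSMUSG00000025290), another gene of Diamond-Blackfan anaemia, had the smallest adjusted p of the 49. It measured 806, 804 and 781 CPM in OMVSSDC, 547, 460 and 512 CPM in PBSDC and 691, 667 and 722 CPM in ZJDC. The 3 groups did not overlap, OMVSSDC 3 was close to its group, and the log2 fold change was 0.65 ± 0.0711 (SE; adjusted p = 2.39e-05), with 0.67 for OMVSSDC 1 and 2 and 0.62 for OMVSSDC 3 alone. Rps27, a zinc-finger protein of the platform, measured 131, 141 and 57.9 CPM in OMVSSDC and 44.4 to 50.5 CPM in PBSDC. All 3 OMVSSDC libraries lay above PBSDC and the log2 fold change was 1.24 (adjusted p = 0.00323), but 0.31 with OMVSSDC 3 alone missed the threshold (adjusted p = 0.281). Rps2 (ENSMUSG00000044533), at the mRNA entry channel, was the reverse of Rps24 in direction, with 76.1, 75.0 and 76.5 CPM in OMVSSDC, 97.7, 102 and 107 CPM in PBSDC and 86.6, 84.7 and 86.2 CPM in ZJDC. Its groups did not overlap either and its OMVSSDC libraries were alike, and it fell by 0.43 ± 0.0588 (SE) on the log2 scale (adjusted p = 0.000109). Rps2 is also the gene with most similar pseudogene copies.

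Rps6, the ribosomal protein that is phosphorylated downstream of mTORC1, and Rpsa, at the mRNA exit, did not pass. Rps6 measured 965, 938 and 1153 CPM in OMVSSDC and 914 to 967 CPM in PBSDC, so that OMVSSDC 3 alone was above PBSDC (log2 fold change 0.29, adjusted p = 4.36e-05, against 0.12 and adjusted p = 0.222 for all 3). Rpsa measured 2869, 2780 and 2978 CPM in OMVSSDC, 2805 to 2876 CPM in PBSDC and 2976 to 2994 CPM in ZJDC, and its log2 fold change was 0.01 ± 0.0502 (SE; adjusted p = 0.814).

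**Figure D3:**
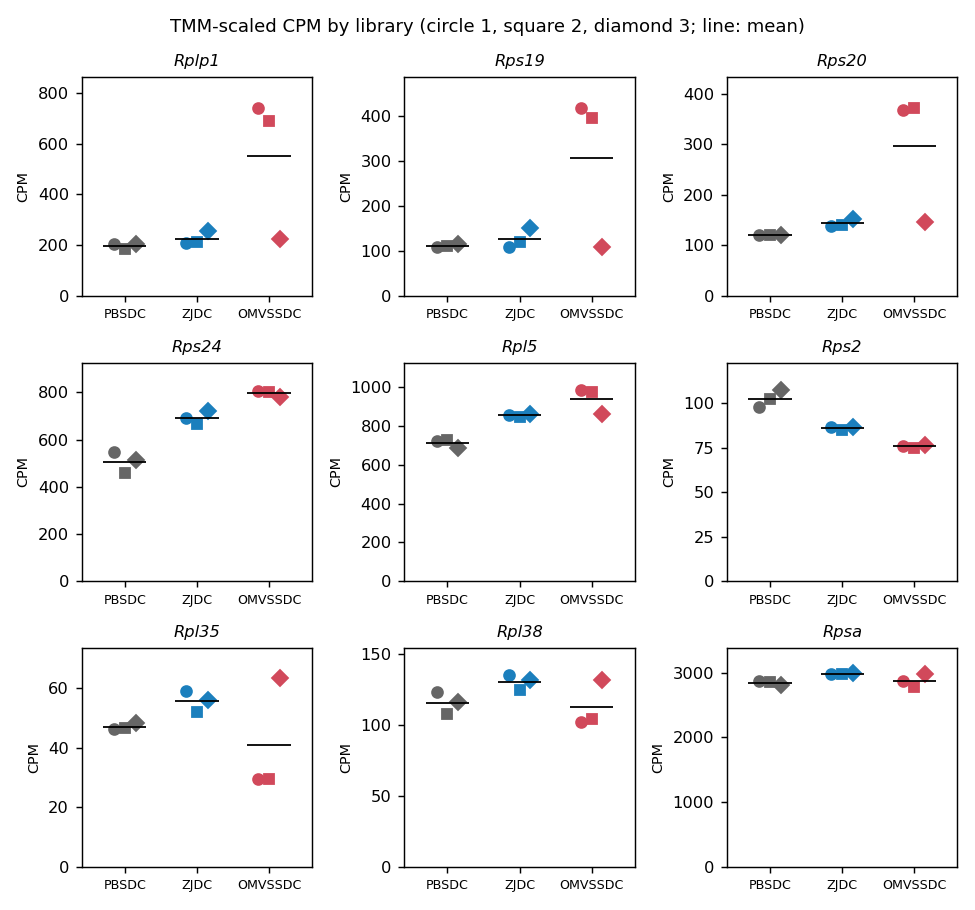
TMM-scaled CPM (y axes from 0) of 9 genes by group (x axes), with a symbol for each library and a line at the group mean. Rplp1, Rps19 and Rps20 have OMVSSDC 3 far below OMVSSDC 1 and 2, Rps24 and Rps2 have the 3 OMVSSDC libraries together, and Rpl35 and Rpl38 have OMVSSDC 3 above the other 2.

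Across the 3 ways of forming the OMVSSDC group (all libraries, without OMVSSDC 3, OMVSSDC 3 alone), 8 genes were higher each time: Rpl5, Rpl19, Rpl22, Rpl23, Rpl32, Rps20, Rps23 and Rps24. Rps2 was lower each time, with log2 fold changes of -0.43, -0.44 and -0.42. The 3 ways share the PBSDC and ZJDC libraries. Calls across all 3 were not counted for all tested genes, so these genes are not set against a share of them. Of the 4 not yet described, Rps23, which lies at the decoding centre, measured 535, 542 and 307 CPM in OMVSSDC, 234, 205 and 228 CPM in PBSDC and 285, 291 and 331 CPM in ZJDC. Its OMVSSDC 3 level was above PBSDC and inside the ZJDC range, and the log2 fold change was 1.05 over all 3 (adjusted p = 0.000606) and 0.46 with OMVSSDC 3 alone (adjusted p = 8.6e-05). Rpl32 measured 650, 632 and 418 CPM in OMVSSDC and 317 to 353 CPM in PBSDC, and its log2 fold change was 0.73 (adjusted p = 0.00159). Rpl19 and Rpl23 had 0.54 (adjusted p = 0.000814) and 0.44 (adjusted p = 0.0013), and for both every OMVSSDC library lay above every PBSDC library. Another 12 genes that rose with all libraries lay between 0.31 for Rpl37 and 1.10 for Rps16, and Rpl30 came closest to the threshold (adjusted p = 0.046). Another 12 that missed it lay between -0.02 for Rpl4 and 0.56 for Rps21.

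Of the 28 genes higher with all libraries, 20 did not pass with OMVSSDC 3 alone, and none of the 28 was lower with it. A further 8 genes, among them Rpl3, Rpl8, Rpl11 and Rps18, were higher without OMVSSDC 3 and lower with OMVSSDC 3 alone. No share of all tested genes was computed for these counts across fits. OMVSSDC 3 lay above the PBSDC range for 25 of the 50 genes, below it for 19 and within it for 6. For all tested genes the shares were 45.0% above and 43.1% below. After a trend with mRNA length and GC content was removed from each library, 23 genes were higher and 3 lower (29.8% and 36.2% of all genes), with a median of 0.23 against -0.04 for all genes. DESeq2 called 29 higher and 2 lower (32.1% and 31.8% of all genes). In the fit without the length and GC trend Rplp1, Rps19, Rps20 and Rps24 had log2 fold changes of 0.94, 1.03, 1.41 and 0.63, while Rpl10a had 0.14 (adjusted p = 0.185).

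**Figure D4:**
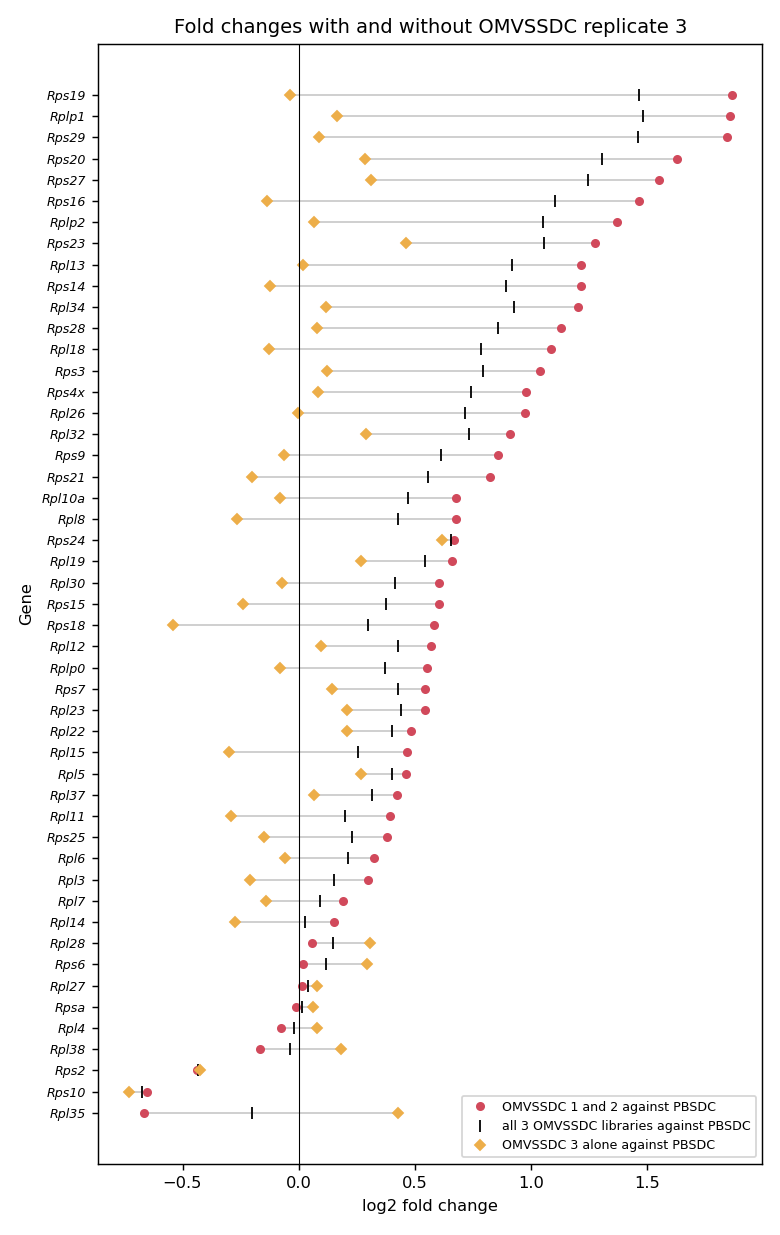
Log2 fold change against PBSDC (x axis) of each of the 49 genes (y axis) for OMVSSDC 1 and 2 (red circles), all 3 OMVSSDC libraries (black ticks) and OMVSSDC 3 alone (yellow diamonds). The median moves from 0.60 to 0.43 to 0.06 in that order, and Rps24 and Rps2 have the 3 marks close together.

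ZJDC was compared with the same PBSDC libraries. Few of the genes differed by the test: 3 were higher and 1 lower of 49, against 27.6% and 27.1% of all tested genes. An unadjusted p under 0.05 was reached by 7, but no share of all genes at that threshold was computed. The median log2 fold change was 0.09, against 0.01 for all tested genes. The higher genes, by log2 fold change, were Rps24 with 0.45 ± 0.071 (SE; adjusted p = 0.000391), Rpl5 with 0.26 ± 0.0653 (SE; adjusted p = 0.0065) and Rps6 with 0.25 ± 0.0812 (SE; adjusted p = 0.0251). Rps6 measured 1160, 1114 and 1066 CPM in ZJDC, all above PBSDC, but leaving out ZJDC 1, ZJDC 2, PBSDC 2 or PBSDC 3 ended its call (adjusted p 0.0682 to 0.091). The lower gene was Rps2, with -0.25 ± 0.0585 (SE; adjusted p = 0.00415). These 4 genes lay outside the PBSDC range in every ZJDC library.

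The count for ZJDC depended on whether OMVSSDC 3 was held in a group with OMVSSDC 1 and 2, since all groups share the estimate of the spread. Without OMVSSDC 3, 19 genes were higher and 7 lower (35.2% and 34.9% of all genes). The counts were the same in the fit with OMVSSDC 3 as the only library of its group (34.2% and 34.1% of all genes), and with only PBSDC and ZJDC in the fit. DESeq2 on all libraries called 4 higher and 2 lower (27.4% and 28.1% of all genes), and removing the length and GC trend left 5 higher and 3 lower (25.1% and 33.9% of all genes). By ranges, 20 genes were higher in all ZJDC than in all PBSDC libraries and 6 were lower, against 36.2% and 36.0% of all tested genes. Among the genes that passed without OMVSSDC 3 were Rps20 (adjusted p = 6.39e-06), Rps23 (adjusted p = 9.39e-07) and Rps3 (adjusted p = 1.81e-05). For Rplp1, Rplp2 and Rplp0 the log2 fold changes in all 9 libraries were 0.19, 0.11 and 0.03, with adjusted p of 0.652, 0.752 and 0.876. For Rps19 and Rps29 they were 0.18 and 0.19, with adjusted p of 0.703 and 0.688.

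OMVSSDC was also compared directly with ZJDC. No gene passed edgeR's quasi-likelihood test in either direction, against 0.856% and 1.10% of all tested genes higher and lower. An unadjusted p under 0.05 was reached by 35 of the 49, but no share of all genes at that threshold was computed. The median log2 fold change was 0.37, against 0.01 for all genes, and the smallest adjusted p was 0.0646, for Rpl22. DESeq2 called 16 genes higher and 1 lower (6.62% and 6.95% of all genes), and limma-voom called none. Without OMVSSDC 3, 40 genes were higher and 5 lower (27.6% and 28.0% of all genes), with a median of 0.56. OMVSSDC 3 alone against ZJDC gave no call (1.18% and 1.79% of all genes) and a median of -0.06. With the length and GC trend removed, none was higher and 1 lower (2.03% and 2.92% of all genes). By ranges, 4 genes were higher in all OMVSSDC than in all ZJDC libraries and 1 was lower, against 11.7% and 12.2% of all tested genes. For Rplp1 the log2 fold change was 1.29 (adjusted p = 0.0698) with all libraries and 1.66 without OMVSSDC 3. For Rps19 it was 1.28 (adjusted p = 0.082) and 1.68.

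The genes also varied within groups, in ZJDC by smaller amounts than in OMVSSDC. The log2 difference between the mean of OMVSSDC 1 and 2 and OMVSSDC 3 had a median of 0.65 over the 49 genes, from -1.09 for Rpl35 to 1.90 for Rps19. In ZJDC, replicate 3 was the highest of the 3 libraries for 38 of the 50 genes, against 37.4% of all tested genes, and its difference from the mean of ZJDC 1 and 2 had a median of 0.13. The 2 differences correlated across the 49 genes with Pearson's r of 0.74 and Spearman's rho of 0.79, against 0.45 and 0.51 across all 11568 tested genes. The OMVSSDC difference also correlated with the difference between PBSDC 3 and the mean of PBSDC 1 and 2, at 0.40 and 0.55 across the 49 and 0.10 and 0.14 across all tested genes. These correlations are across genes within the same libraries, which share depth and preparation, and genes are not independent replicates. Without Rps19, Rps29 and Rplp1 the correlations between the OMVSSDC and ZJDC differences were 0.72 and 0.76 over 46 genes. Over the 31 ribosomal protein genes outside the 50 they were 0.40 and 0.46. Those between the OMVSSDC and PBSDC differences were 0.38 and 0.51 over the 46 genes. Over the 31 they were 0.0044 and 0.11, so the other ribosomal protein genes did not share this last correlation. The OMVSSDC difference correlated with mRNA length at -0.22 and -0.32 and with GC content at 0.09 and 0.20 across the 49. Across the 11534 tested genes with a matched mRNA the values were -0.29 and -0.28 for length and 0.39 and 0.40 for GC content.

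**Figure D5:**
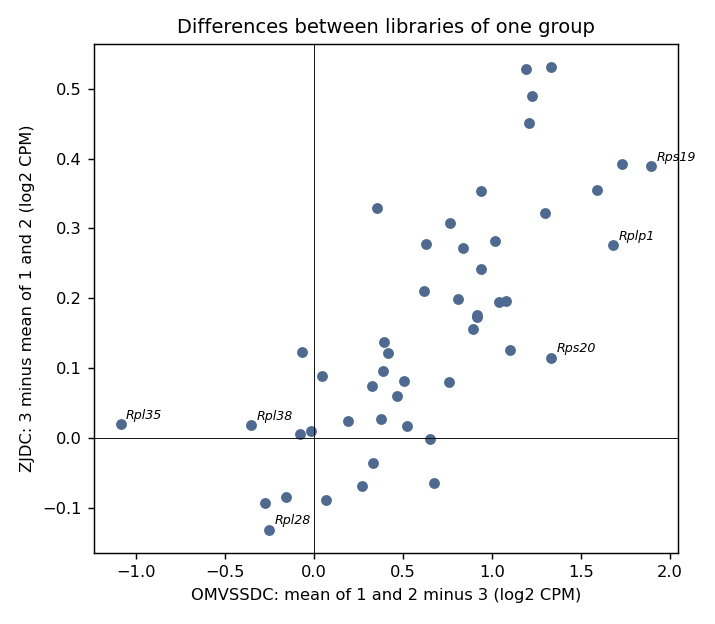
Each point is 1 of the 49 genes: the log2 CPM difference between OMVSSDC 1 and 2 and OMVSSDC 3 (x axis) against that between ZJDC 3 and the mean of ZJDC 1 and 2 (y axis). Genes with a large difference in OMVSSDC, such as Rps19 at 1.90, tend to lie high on the y axis, and Rpl35 lies far to the left at -1.09.

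Genes with and without a tract at the annotated first base overlapped in their changes. The 11 with a tract had a median log2 fold change of 0.15 in OMVSSDC against PBSDC, from -0.68 for Rps10 to 1.24 for Rps27. The 29 tested genes with a matched start but no tract at its first base had a median of 0.44, from -0.43 to 1.46. Without OMVSSDC 3 the medians were 0.15 for the genes with a tract and 0.60 for those without. Rpl35 and Rpl38, low in OMVSSDC 1 and 2, and Rps27 and Rplp2, high in them, all have the tract in the sequences printed above.

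Other parts of the translation machinery differed from list to list in OMVSSDC against PBSDC. In that comparison 33.4% of all tested genes were higher and 30.2% lower. The lists of paralogs and of elongation genes are too small to set their shares apart from these. The 31 other ribosomal protein genes had 19 higher and 2 lower, with a median log2 fold change of 0.44. That median was 0.59 without OMVSSDC 3 and -0.05 with OMVSSDC 3 alone. Rpl17 and Rpl36 rose by 0.52 (edgeR adjusted p = 0.000107) and 0.82 (edgeR adjusted p = 0.000952). With OMVSSDC 3 alone their log2 fold changes were 0.37 and 0.33. Of 5 tested paralogs, which can replace a ribosomal protein, 2 were higher: Rpl22l1 measured 10.03, 9.11 and 1.69 CPM in OMVSSDC and 1.83 to 2.40 CPM in PBSDC, with OMVSSDC 3 below PBSDC, and Rps27rt rose by 0.83 (adjusted p = 0.0264). Of 34 initiation factor genes, 3 were higher and 24 lower, with a median of -0.41, and of -0.40 with OMVSSDC 3 alone. The scaffold gene Eif4g1 measured 443, 442 and 448 CPM in OMVSSDC and 914 to 946 CPM in PBSDC, so that OMVSSDC 3 was with its group, and Eif3l fell by 1.23 on the log2 scale (adjusted p = 1.48e-07). Of 7 tested genes listed under elongation, 2 were higher and 3 lower. Among the lower were the exchange factor gene Eef1d, which fell by 1.06 (edgeR adjusted p = 2.19e-07), and Eef1e1, which fell by 0.48 (edgeR adjusted p = 0.000406). Eef1e1 was listed by its name and not by a role in elongation.

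Genes for making ribosomes were lower. Of 16 core ribosome biogenesis genes, 15 were lower and none higher in OMVSSDC against PBSDC, with a median log2 fold change of -1.03. Of all tested genes, 30.2% were lower. With OMVSSDC 3 alone the median of the 16 was -0.98. In ZJDC against PBSDC, 15 of the 16 were lower, against 27.1% of all tested genes. Nop56, a core protein of the particles that modify ribosomal RNA, measured 176, 178 and 180 CPM in OMVSSDC, 355 to 376 CPM in PBSDC and 204 to 212 CPM in ZJDC. All 3 OMVSSDC libraries were alike and below the other groups. The methyltransferase gene Fbl fell by 1.02 (adjusted p = 6.17e-07). Chaperones that carry single ribosomal proteins to the nucleus had 5 of 6 lower, with a median of -0.68, against 30.2% of all tested genes. This list is small and was not tested as a set. Among the lower were Grwd1, which fell by 1.56 (edgeR adjusted p = 3.82e-07), and Heatr3, which serves Rpl5 and fell by 0.85 (edgeR adjusted p = 8.1e-06).

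The regulators are set beside 33.4% higher and 30.2% lower of all tested genes. Of 25 genes of mTORC1 and translation control, 8 were higher and 12 lower. The share higher was near that of all genes and the share lower was above it, and no list was tested as a set. Tsc2, an inhibitor of mTORC1, fell by 0.62 (adjusted p = 1.63e-05), and Pdcd4, an inhibitor of the initiation helicase, rose by 1.58 (adjusted p = 3.26e-06). Of 15 other mRNAs known to carry the tract, 5 were higher and 7 lower, with a median of -0.14. This list too is too small to set its shares apart from those of all genes. Among the lower, Eif4b fell by 0.86 (edgeR adjusted p = 5.07e-07). Of 11 genes of ribosome rescue and quality control, 4 were higher and 5 lower, a list too small to set its shares apart from those of all genes. Gtpbp2, which helps to resolve stalled ribosomes, measured 732, 718 and 523 CPM in OMVSSDC, 112 to 114 CPM in PBSDC and 425 to 464 CPM in ZJDC, and rose by 2.54 (adjusted p = 9.98e-08). The deubiquitinase gene Usp10, which rescues small-subunit proteins, fell by 0.97 (adjusted p = 3.14e-06). Of the 3 genes for p53 and its ligase partners, Mdm4 rose by 0.43 (adjusted p = 4.04e-05) and Trp53 fell by 0.53 (adjusted p = 4.56e-05).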

How the data were processed

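Total RNA of DC2.4 cells was sequenced in 9 libraries, grouped by their titles. Per the submitters' processing notes, fastp 0.22.0, HISAT2 2.1.0 and HTSeq 0.9.1 were used on the reads. The deposited table gives raw read counts per gene, and library totals were 12784931 to 18388959, so 3 counts correspond to 0.163 to 0.235 CPM. It also gives FPKM, which the authors scaled by gene length and library total; all 21959 FPKM rows equalled count over length and total within 0.01%. No source used here names the authors' genome build or annotation, and no coordinate of the table is printed.

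Counts were tested in R 4.3.3 with edgeR 4.0.16 (filterByExpr with minimum count 10, TMM scaling, robust quasi-likelihood fit of all 9 libraries, two-sided, Benjamini-Hochberg over the 11568 tested genes, adjusted p under 0.05). CPM of ribosomal protein and translation genes are TMM-scaled, and those of marker genes are per library total. Log2 differences within groups used a pseudocount of 0.5 CPM. Alternatives were RLE or library size scaling, no or a stricter filter, DESeq2 1.42.0, limma-voom (limma 3.58.1), the replicate number as a block, only the 2 groups compared, a length trend removed, each library left out, and OMVSSDC 3 alone in a fit of 7 libraries. A length and GC trend (GENCODE M21 mRNAs) was added after seeing the data. Pseudogene copies were found with blastn 2.17.0 among annotated pseudogene transcripts. The test was checked on simulated data in which the libraries of a group varied alike. That check therefore does not cover a group with a library that stands apart, as OMVSSDC 3 does.

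The members and gene lists were chosen with earlier results of these data known. Genes were named by rule: a panel of 17 members, the 4 members with the largest change past the threshold per comparison and direction, and the 2 genes with the smallest adjusted p of each of 10 pathway lists, some of which share genes. Other names were chosen after their values were seen. Of the listed symbols, 1 was not found in the table.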

Additional observations from a re-analysis of the deposited data

How the results depend on the processing

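Scaling by library size alone moved the median log2 fold change of all genes in OMVSSDC against PBSDC from 0.05 to 0.18. The counts of ribosomal protein genes below are given as called higher and lower by an adjusted p. The share of all tested genes called also moved between settings. In OMVSSDC against ZJDC the share higher was 0.856% in the main fit, 6.62% with DESeq2 and 27.6% without OMVSSDC 3. For settings whose share is not printed above, the counts below cannot be set against all tested genes.

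For OMVSSDC against PBSDC, the number lower was 1 with library size alone, no filter, the stricter filter, limma-voom, the replicate block and only the 2 groups compared, 4 with the length trend removed, and 10 with OMVSSDC replicate 3 left out and the trend of length and GC removed. With OMVSSDC replicate 3 alone in 7 libraries, 12 were higher and 9 lower, with a median of 0.064. Leaving out 1 library gave 19 to 40 higher and 1 to 4 lower.

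For ZJDC against PBSDC, RLE scaling and DESeq2 each gave 2 lower. Library size alone gave 8 higher and a median of 0.15, the length trend removed gave 3 lower and a median of 0.028, and the length and GC trend removed gave 5 higher and 3 lower. Only the 2 groups compared, and the 7 libraries with OMVSSDC replicate 3 alone, gave 19 higher and 7 lower, and the length and GC trend without OMVSSDC replicate 3 gave 21 higher and 10 lower. Leaving out 1 library gave 2 to 19 higher and 1 to 7 lower.

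For OMVSSDC against ZJDC, DESeq2 gave 16 higher and 1 lower, the length and GC trend removed gave 1 lower, and the same without OMVSSDC replicate 3 gave 36 higher and 8 lower. Leaving out 1 library gave 0 to 40 higher and 0 to 5 lower, and the median was -0.064 with OMVSSDC replicate 3 alone.

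Replicate numbers recur across groups, but same-numbered libraries deviated together at correlations of only -0.388 to 0.089, and 0 to 4 of 6 libraries per comparison correlated best with their own number. With the replicate block, 22 were higher and 1 lower in OMVSSDC against PBSDC, 2 and 1 in ZJDC against PBSDC, and 0 and 0 in OMVSSDC against ZJDC.

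Single genes changed sign under these settings, on the log2 scale. In OMVSSDC against PBSDC, Rpsa was -0.016 with RLE and with DESeq2, -0.088 with the length trend removed, -0.056 with length and GC removed, -0.11 with that and replicate 3 left out, and -0.013 to 0.033 with 1 library left out. Rpl38 was 0.085 with library size alone, 0.016 with the stricter filter, 0.18 with OMVSSDC 3 alone, and -0.17 to 0.023 with 1 library left out. Rps6 was -0.083 with the length trend removed, -0.095 with length and GC removed, and -0.27 with that and replicate 3 left out. Rpl11 and Rpl3 were -0.080 and -0.0069 with length and GC removed. With OMVSSDC 3 alone, Rplp0 was -0.080, Rpl11 -0.29, Rpl3 -0.21, Rpl10a -0.083 and Rps19 -0.040.

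In ZJDC against PBSDC, Rpl10a was 0.046 with library size alone and 0.018 with the stricter filter, and Rplp0 was -0.0277 with the length trend removed. With 1 library left out, Rpl10a was -0.049 to 0.0051, Rplp0 -0.071 to 0.096 and Rplp2 -0.0087 to 0.17. In OMVSSDC against ZJDC, Rps10 was 0.054 and Rpsa 0.0081 with library size alone, and Rps10 was 0.010 with limma-voom and -0.16 to 0.18 with 1 library left out. With OMVSSDC 3 alone against ZJDC, Rplp0 was -0.12, Rplp1 -0.031, Rplp2 -0.053, Rpl11 -0.13, Rpl3 -0.12, Rpl10a -0.068, Rpl13 -0.21, Rps3 -0.12, Rps19 -0.23, Rps27 -0.16 and Rps29 -0.11, while Rpl38 was 0.0039 and Rps6 0.041. The cause of these changes was not tested.

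Without mitochondrially encoded genes in the total, the mean share of counts was 2.73% in OMVSSDC, 2.03% in PBSDC and 2.20% in ZJDC. OMVSSDC 1 to 3 had 3.04%, 2.98% and 2.17%. Rpl24 had too few counts to test, and Rps10 was at about 2 to 4 CPM. The cause of these low counts was not tested.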
